A study of Homo sapiens with 6 samples.

Results

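The genes described here encode the machinery that copies DNA: origin recognition and licensing factors, the replicative helicase and its activators, polymerases, the sliding clamp and its loader, fork and chromatin assembly factors, enzymes of nucleotide supply, and the factors E2F1 and E2F2. They were chosen by name from a list of 59 symbols, and all 59 were measured among the 18404 genes that the array annotation names without ambiguity. PC-3, an established prostate carcinoma line that grows without androgen, was given menthol in ethanol or ethanol alone, in 3 arrays each. The cells of both groups were kept in DMEM with 10% fetal bovine serum, and the ethanol in which menthol was dissolved stood at 0.1%. The study asked what menthol, a cooling terpene of mint oils, does to the expression profile of this line. Its dose and the treatment time are not stated in the labels. Nothing in the labels says whether the 3 arrays of a group came from separate cultures, so the p-values rest on a spread between arrays that may be technical.

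In late mitosis and G1 the origin recognition complex, with CDC6 and CDT1, loads the MCM2 to MCM7 helicase onto origins. In S phase the kinase CDC7 with its partner DBF4, MCM10, CDC45 and the GINS complex turn that helicase on, and the polymerases alpha, delta and epsilon follow it. Many of these genes are transcribed through E2F factors as cells pass from G1 into S phase, and proliferating tumour lines express them at high levels.

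Values are log2 of the deposited normalized intensity, and a change is the menthol mean minus the vehicle mean on that scale, with the moderated standard error (SE, n = 3 per group). A probeset's brightness depends on its probes, so a percentile of level ranks the signal of a gene's probeset and not the amount of its RNA. A gene was called when its adjusted p in limma, with Benjamini-Hochberg adjustment over all 18404 genes, was under 0.05. The whole cultures were measured. For a gene that rose or fell, a changed share of cells in S phase and a changed amount of RNA per cell cannot be told apart. The number of arrays limits the precision.

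The 5 epithelial markers KRT8, KRT18, KRT19, EPCAM and CDH1 lay between the 87.6th and the 99.0th percentile of genes. All 5 were higher with menthol, and their summed intensity was 6213 to 6570 in the vehicle arrays and 10519 to 10856 in the menthol arrays. Of the luminal androgen-driven markers, KLK3 and KLK2 lay between the 32.2nd and the 33.6th percentile. Of 5 fibroblast markers 2 were higher and 1 lower, with summed intensities of 360.4 to 376.7 and 310.5 to 332.9. They lay between the 0.7th and the 70.7th percentile, with COL1A1 the highest. The calls of COL1A2 and DCN, both higher, ended when some single arrays were left out, and that of COL3A1, which was lower, did not. Of 5 endothelial markers 2 were higher and 0 lower, with sums of 152 to 166 and 192 to 201. They lay between the 15.8th and the 48.6th percentile. The CLDN5 call ended without menthol replicate 2 or vehicle replicate 3, and the PECAM1 call did not end without any 1 array. The 4 measured leukocyte markers had 0 calls, sums of 52.5 to 68.2 and 56.8 to 74.8, and no level above the 29.1th percentile. The part of these marker shifts in the results that follow was not tested.

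Replication genes moved in both directions and by small amounts. Of the 59 genes, 11 rose and 16 fell with menthol, or 45.8% in all. Without vehicle replicate 1, 2 or 3 in turn, 7, 7 and 8 rose and 9, 10 and 10 fell, and without menthol replicate 2, 8 rose and 9 fell. Over all genes 29.1% were called, 14.6% higher and 14.5% lower. In counts, 2683 of all genes rose and 2670 fell, and these counts also dropped with fewer arrays. Without vehicle replicate 1, 2 or 3 in turn, 1950, 1964 and 1988 of all genes rose and 1933, 1975 and 1851 fell. Without menthol replicate 2, 2014 of all genes rose and 2053 fell. The probesets of the replication genes gave high signals, with a median at the 86.7th percentile and 43 of 59 among the brightest 4601 genes, of which 44.1% were called. Their share of calls was therefore near that of genes with a high signal as a whole. Of the 27 called genes 40.7% were higher, against 50.1% of the calls over all genes and 39.0% of those among the brightest 4601. Under cyclic loess normalization 13 rose and 11 fell, so that 54.2% of the calls were higher, near the 52.5% over all genes and the 53.2% of the brightest 4601 under that setting.

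The largest changes were a fall of POLD1 and rises of GINS3 and CDC6. The changes ran from -0.61 to 0.49, with a median of -0.02 against 0.03 over all genes. The median change of the called replication genes was 1.24-fold, against 1.30-fold for called genes as a whole, and 1 of the 59 (1.69%) was called with a change of at least 1.5-fold, against 5.61% of all genes and 6.85% of the brightest 4601. In 34 of the 59 (57.6%) the 3 menthol arrays lay outside the range of the 3 vehicle arrays, as in 45.3% of all genes and 66.5% of the brightest 4601. Of the 27 calls, 16 were called in the same direction in all 17 alternative analyses that tested them, 7 higher and 9 lower, or 27.1% of the list. Over all genes 17.1% were called that firmly, and 28.1% of the brightest 4601. These 16 genes were ORC5, CDC6, MCM10, GINS3, RFC2, FEN1 and CLSPN, which rose, and ORC2, ORC3, MCM4, GINS4, POLD1, POLE, LIG1, TIPIN and TYMS, which fell. The other 11 calls ended when 1 array was left out, as given with each gene.

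**Figure D1:**
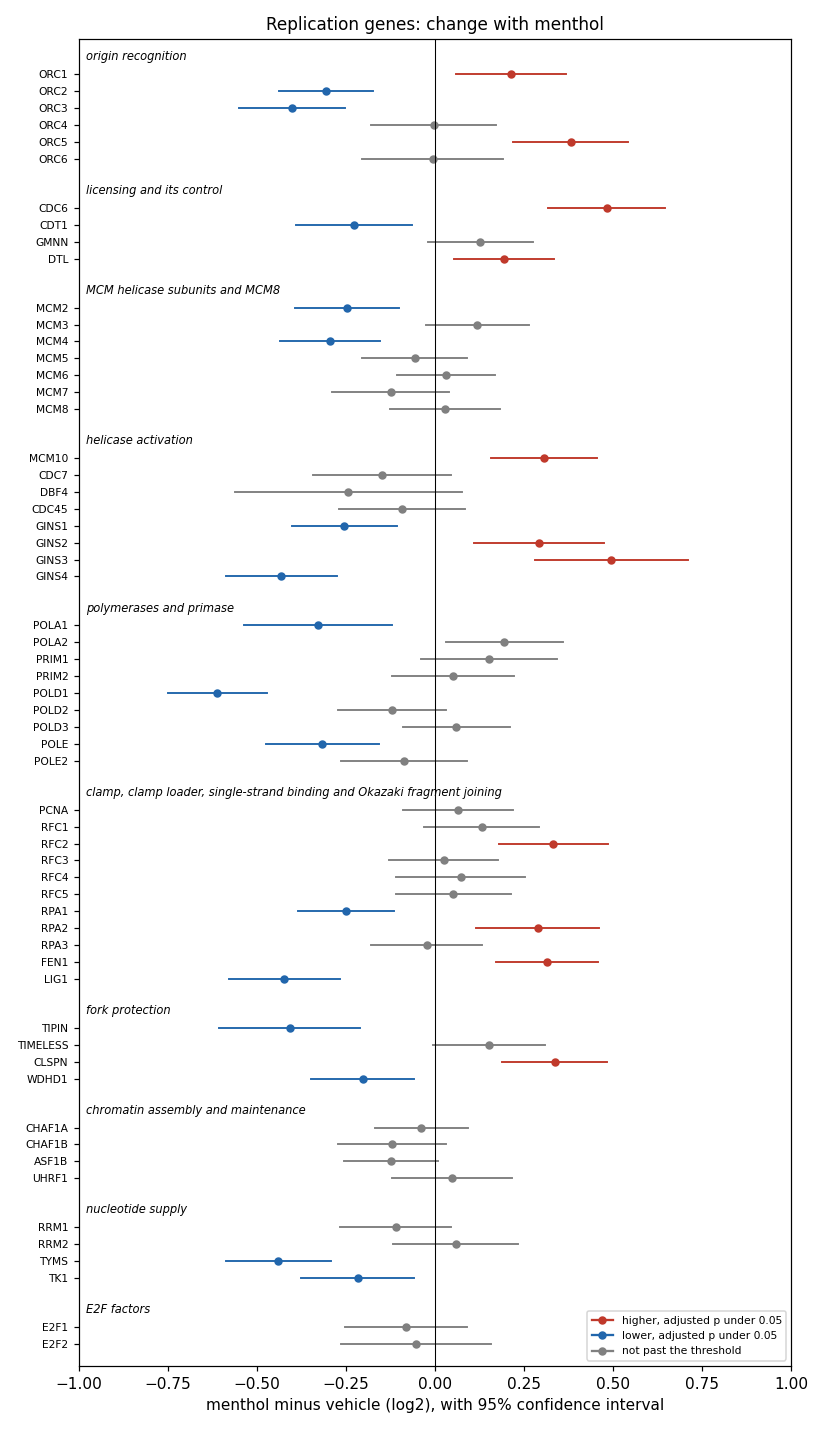
Change of each of the 59 replication genes with menthol, on the log2 scale, as points with 95% confidence intervals from limma, grouped by role. Red marks the 11 genes called higher, blue the 16 called lower and grey the 32 not called; most roles hold genes on both sides of 0.

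**Figure D2:**
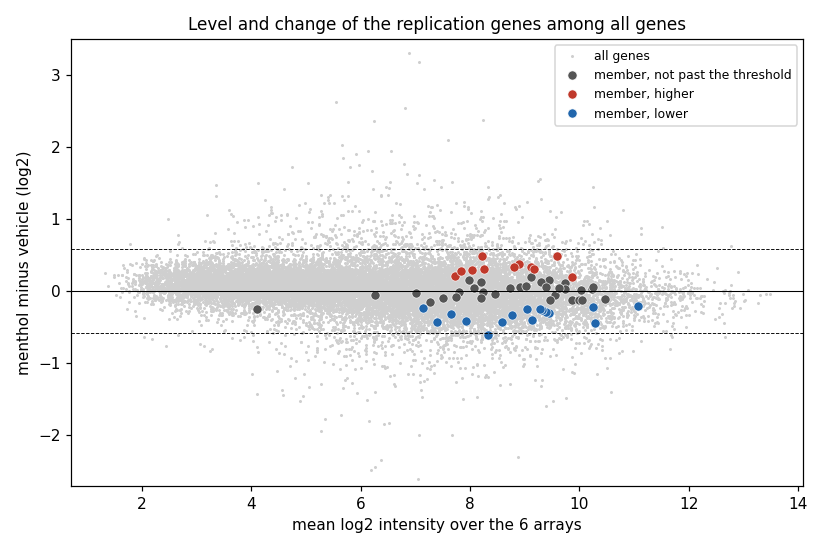
Mean log2 intensity over the 6 arrays (x axis) against the change with menthol (y axis, log2) for all 18404 genes in grey and the 59 replication genes in colour; dashed lines mark 1.5-fold. The replication genes sit mostly among probesets of high signal, and POLD1 alone of them lies past a dashed line.

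The subunits of the origin recognition complex, which marks origins and recruits the helicase loaders, did not move together. ORC3 read 9.28, 9.34 and 9.40 in the vehicle arrays and 8.88, 8.95 and 8.97 in the menthol arrays. ORC2 read 9.61, 9.57 and 9.63 with vehicle and 9.29, 9.28 and 9.32 with menthol. In both genes every menthol array was below every vehicle array, and the changes were -0.40 ± 0.06 (adjusted p = 0.00309) and -0.31 ± 0.06 (adjusted p = 0.00618). ORC5 went the other way, from 8.58, 8.77 and 8.74 to 9.07, 9.06 and 9.11, a rise of 0.38 ± 0.07 (adjusted p = 0.00577). ORC1, the subunit whose level cycles in human cells, rose by 0.21 ± 0.07 (adjusted p = 0.048). That call ended without any 1 of the 6 arrays (adjusted p 0.0545 to 0.117), with equal array medians (adjusted p = 0.0793) and, narrowly, with array weights (adjusted p = 0.0524) and with the adjustment over probesets (adjusted p = 0.0502). ORC4 and ORC6 were not called, with 95% confidence intervals of -0.18 to 0.17 and -0.21 to 0.19.

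The loaders CDC6 and CDT1 also moved apart. CDC6, the ATPase that joins ORC to load the helicase, read 9.38, 9.26 and 9.43 with vehicle and 9.77, 9.84 and 9.89 with menthol. The groups were separate, and the rise was 0.48 ± 0.07, or 1.40-fold (adjusted p = 0.00222). CDT1, which brings the helicase to the loader, read 7.23, 7.20 and 7.35 with vehicle and 7.03, 7.10 and 6.96 with menthol. It fell by 0.23 ± 0.07 (adjusted p = 0.0445), again with separate groups, but the call ended without any 1 of the 6 arrays (adjusted p 0.0577 to 0.136), under quantile normalization (adjusted p = 0.064), under cyclic loess normalization (adjusted p = 0.0532) and with array weights (adjusted p = 0.0628). GMNN encodes geminin, the inhibitor of CDT1, and was not called (0.13 ± 0.06, adjusted p = 0.172). DTL, the substrate receptor of the ubiquitin ligase that destroys CDT1 in S phase, rose by 0.19 ± 0.06 (adjusted p = 0.0461), a call that ended without any 1 of the 6 arrays (adjusted p 0.075 to 0.147) and with equal array medians (adjusted p = 0.0837).

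Of the 6 subunits of the MCM helicase, MCM2 and MCM4 fell and the other 4 were not called. MCM4 read 9.59, 9.50 and 9.53 with vehicle and 9.28, 9.25 and 9.20 with menthol. MCM2 read 9.19, 9.15 and 9.15 with vehicle and 8.96, 8.83 and 8.96 with menthol. Every menthol array was lower than every vehicle array in both genes, with changes of -0.30 ± 0.06 for MCM4 (adjusted p = 0.00893) and -0.25 ± 0.06 for MCM2 (adjusted p = 0.0219). The MCM2 call ended without menthol replicate 2 or any 1 vehicle replicate (adjusted p 0.0571 to 0.0755), under quantile normalization (adjusted p = 0.052) and under cyclic loess normalization (adjusted p = 0.0611). MCM6 read 10.18, 10.18 and 10.27 with vehicle and 10.23, 10.25 and 10.25 with menthol, so the groups overlapped (interval -0.11 to 0.17). The intervals were -0.03 to 0.26 for MCM3, -0.20 to 0.09 for MCM5 and -0.29 to 0.04 for MCM7. MCM3 read higher in every menthol array than in any vehicle array, and it was called higher under cyclic loess normalization. MCM8, a relative of the helicase that acts in recombination, was not called either (interval -0.13 to 0.18).

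All 4 genes of GINS, the complex that joins CDC45 and MCM2 to MCM7 in the active helicase, were called, 2 in each direction. GINS3 had the largest rise on the list, from 8.030, 7.880 and 7.996 to 8.616, 8.478 and 8.295, or 0.49 ± 0.09 (1.41-fold, adjusted p = 0.00625). GINS4 fell from 8.88, 8.75 and 8.76 to 8.38, 8.41 and 8.30, a change of -0.43 ± 0.07 (adjusted p = 0.00276). The groups were separate in both genes, and the menthol arrays of GINS3 were more widely spread (SD 0.16) than its vehicle arrays (SD 0.08). GINS2 read 7.83, 7.88 and 7.94 with vehicle and 8.30, 8.05 and 8.18 with menthol, a rise of 0.29 ± 0.08 (adjusted p = 0.0277). GINS1 read 9.48, 9.40 and 9.45 with vehicle and 9.19, 9.12 and 9.25 with menthol, a change of -0.25 ± 0.06 (adjusted p = 0.0197). The last 2 calls were less firm. The GINS2 call ended without menthol replicate 1 or 3 or any 1 vehicle replicate (adjusted p 0.0511 to 0.0916). The GINS1 call ended without menthol replicate 2 or vehicle replicate 1 or 3 (adjusted p 0.0602 to 0.0728) and, narrowly, under cyclic loess normalization (adjusted p = 0.05).

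Among the other activators, MCM10, which helps the helicase start to unwind, rose from 8.18, 8.07 and 8.09 to 8.48, 8.37 and 8.40, by 0.31 ± 0.06 (adjusted p = 0.0103). CDC45, the remaining partner in the active helicase, was not called (-0.09 ± 0.08). CDC7, the kinase that triggers origin firing, was not called (-0.15 ± 0.08, adjusted p = 0.224). Its activating subunit DBF4 was not called either, and its menthol arrays read 4.20, 4.10 and 3.67 against 4.13, 4.22 and 4.35 with vehicle, so that the groups overlapped. The 95% confidence interval of DBF4 was the widest among the 59, from -0.56 to 0.07.

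The catalytic subunits of the 3 replicative polymerases fell, and none of their 6 accessory and primase partners on the list was called. POLD1, the catalytic subunit of polymerase delta, which makes most of the lagging strand, read 8.60, 8.61 and 8.69 with vehicle and 7.99, 8.05 and 8.01 with menthol. This change of -0.61 ± 0.06, a 1.53-fold fall, was the largest change on the list (adjusted p = 0.000379). POLE, the catalytic subunit of the leading-strand polymerase epsilon, fell from 7.88, 7.76 and 7.78 to 7.40, 7.53 and 7.53, a change of -0.32 ± 0.07 (adjusted p = 0.0112). POLA1, the catalytic subunit of the priming polymerase alpha, read 8.99, 8.89 and 8.93 with vehicle and 8.45, 8.59 and 8.77 with menthol. Its change of -0.33 ± 0.09 (adjusted p = 0.0279) had separate groups but a wide spread with menthol (SD 0.16), and the call ended without menthol replicate 1 or 2 or any 1 vehicle replicate (adjusted p 0.0564 to 0.0886).

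The accessory subunits POLA2, POLD2, POLD3 and POLE2 changed by 0.19, -0.12, 0.06 and -0.09, and the primase subunits PRIM1 and PRIM2 by 0.15 and 0.05. POLA2 was the nearest to a call (adjusted p = 0.0778) and read higher in all 3 menthol arrays than in any vehicle array. It was called higher in 6 of the alternative analyses, among them quantile and cyclic loess normalization. Outside the list, POLE4, an accessory subunit of polymerase epsilon named here after its values were seen, rose by 0.30 ± 0.06 (adjusted p = 0.00573). The accessory subunits POLE3 and POLD4, also outside the list, changed by -0.05 and 0.27 and were not called (adjusted p = 0.607 and 0.0524). A difference between catalytic and accessory subunits was seen after the values were known and was not tested.

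PCNA, the sliding clamp that holds polymerases on DNA, did not differ beyond the spread of the arrays: it read 10.19, 10.20 and 10.27 with vehicle and 10.22, 10.26 and 10.38 with menthol (interval -0.09 to 0.22). Of the 5 subunits of its loader, RFC2 rose from 8.95, 8.87 and 9.04 to 9.28, 9.26 and 9.31, by 0.33 ± 0.07 (adjusted p = 0.00822). RFC1, RFC3, RFC4 and RFC5 were not called, with changes of 0.13, 0.02, 0.07 and 0.05.

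The enzymes that finish Okazaki fragments moved in opposite directions. The flap nuclease FEN1 rose from 9.00, 9.05 and 9.01 to 9.32, 9.28 and 9.40, by 0.31 ± 0.06 (adjusted p = 0.00786). The ligase LIG1, which seals the nick that FEN1 leaves, fell from 7.66, 7.55 and 7.63 to 7.14, 7.15 and 7.28, a change of -0.42 ± 0.07 (adjusted p = 0.00308). In both genes the groups were separate.

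RPA, the trimer that coats unwound DNA, was divided in the same way. RPA1 read 9.41, 9.42 and 9.38 with vehicle and 9.18, 9.11 and 9.17 with menthol, a change of -0.25 ± 0.06 (adjusted p = 0.0152). RPA2 read 7.70, 7.57 and 7.80 with vehicle and 7.96, 8.01 and 7.96 with menthol, a rise of 0.29 ± 0.07 (adjusted p = 0.0229). RPA3 was not called (interval -0.18 to 0.13). Both calls ended without menthol replicate 2 or vehicle replicate 1 or 2, with adjusted p of 0.0549 to 0.0585 for RPA1 and 0.0643 to 0.0774 for RPA2.

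Of the fork protection factors, CLSPN, the claspin adaptor through which ATR activates CHK1, rose from 8.64, 8.61 and 8.67 to 9.02, 8.89 and 9.01, by 0.34 ± 0.06 (adjusted p = 0.0065). A dimmer probeset of CLSPN, not used for the calls, was higher by 0.64. TIPIN, which helps stabilise stalled forks, fell from 8.18, 8.06 and 8.17 to 7.58, 7.74 and 7.86, a change of -0.41 ± 0.09 (adjusted p = 0.00991). TIMELESS, its binding partner at the fork, was not called (0.15 ± 0.07, adjusted p = 0.138). WDHD1, which couples polymerase alpha to the helicase, fell by 0.20 ± 0.06 (adjusted p = 0.0432). The WDHD1 call ended without menthol replicate 1 or 2 or any 1 vehicle replicate (adjusted p 0.0788 to 0.127), under quantile normalization (adjusted p = 0.241) and under cyclic loess normalization (adjusted p = 0.186).

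None of the 4 genes of chromatin assembly and maintenance was called. The histone chaperone genes CHAF1A, CHAF1B and ASF1B changed by -0.04, -0.12 and -0.12, and UHRF1, which recruits the maintenance DNA methyltransferase, by 0.05. A dimmer probeset of UHRF1, not used for the calls, was higher by 0.27. ASF1B had the smallest p of the 4 (adjusted p = 0.142), with every menthol array, at 10.01, 9.98 and 9.95, below the vehicle arrays at 10.10, 10.09 and 10.13.

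Of the genes of nucleotide supply, TYMS and TK1 fell and the subunits of ribonucleotide reductase were not called. TYMS, which makes thymidylate from deoxyuridylate, read 10.52, 10.48 and 10.54 with vehicle and 10.02, 10.04 and 10.15 with menthol. The groups were separate, and the change was -0.44 ± 0.06, a 1.36-fold fall (adjusted p = 0.00204). TK1, the salvage thymidine kinase, read 10.30, 10.35 and 10.41 with vehicle and 10.22, 10.06 and 10.12 with menthol, a change of -0.22 ± 0.07 (adjusted p = 0.0475). The TK1 call ended without menthol replicate 2 or 3 or any 1 vehicle replicate (adjusted p 0.0811 to 0.141), under quantile normalization (adjusted p = 0.294) and under cyclic loess normalization (adjusted p = 0.173).

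RRM1 and RRM2, the large and small subunits of the reductase that makes deoxynucleotides, had overlapping groups, with intervals of -0.27 to 0.04 and -0.12 to 0.23. RRM2 read 9.28, 9.34 and 9.48 with vehicle and 9.50, 9.36 and 9.41 with menthol. E2F1 and E2F2 were not called (-0.08 ± 0.07 and -0.05 ± 0.09), and their intervals ran from -0.25 to 0.09 and from -0.26 to 0.16.

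**Figure D3:**
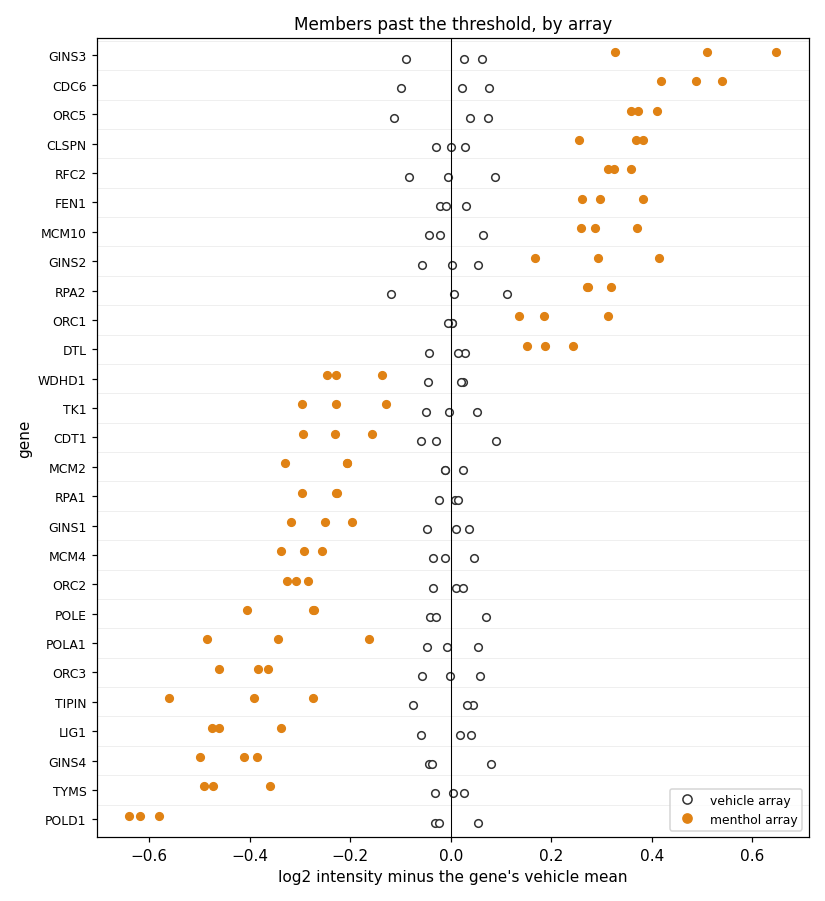
Log2 intensity of the 27 called replication genes in each array, minus the gene's vehicle mean (x axis), with open circles for the 3 vehicle arrays and filled orange circles for the 3 menthol arrays. The groups are separate in all 27 genes, and the menthol arrays of GINS3, POLA1 and TIPIN are the most widely spread.

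**Figure D4:**
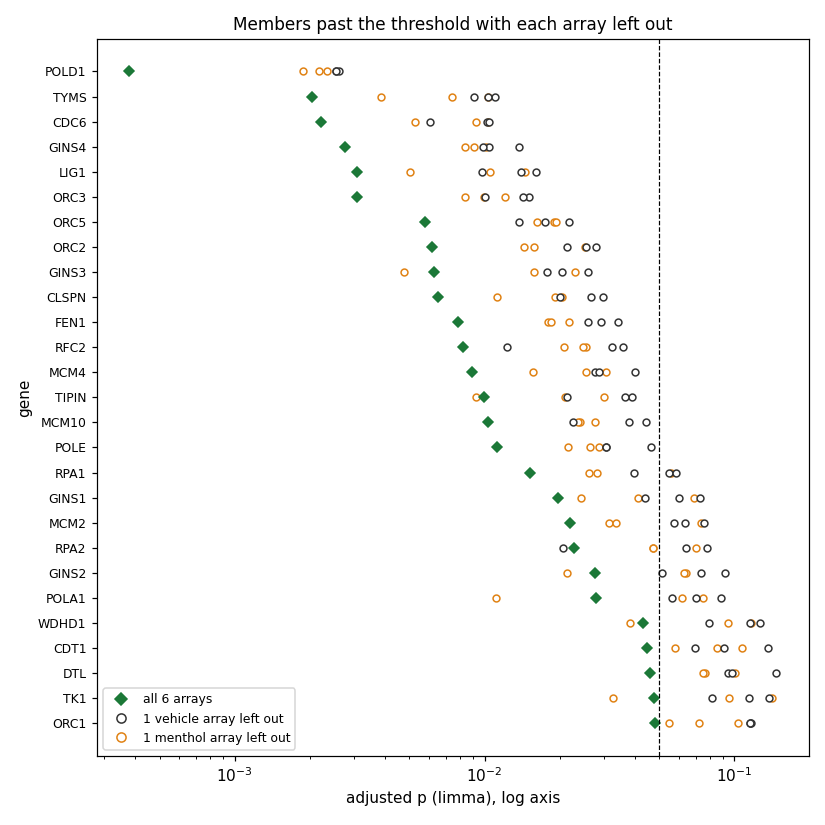
Adjusted p in limma (x axis, log axis) of the 27 called replication genes with all 6 arrays (green diamonds) and with 1 vehicle array (dark circles) or 1 menthol array (orange circles) left out; the dashed line marks 0.05. From POLD1 down to POLE all circles stay left of the line, and in the 11 genes from RPA1 down at least 3 circles lie right of it.

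Sequences upstream of the genes were taken from RefSeq (GRCh38.p14), as the 250 bases before the most upstream start listed for each gene. A total of 53 of the 59 genes matched by symbol. These windows were searched on both strands for 8 octamers of the E2F motif (TTTCCCGC, TTTCGCGC, TTTGCCGC, TTTGGCGC, TTTCCCGG, TTTCGCGG, TTTGCCGG and TTTGGCGG). Matches to different octamers can overlap each other on opposite strands. At least 1 octamer was found in 20 of the 53 windows (37.7%), against 5.24% of all 27305 genes in the table and 7.03% of the 14230 genes tested on the arrays. By outcome, it was found upstream of 3 of 10 higher genes, 6 of 14 lower genes and 11 of 29 genes that were not called. These shares were not tested against each other. The pentamer CCAAT, the letters of the NF-Y binding box, was found in 30 of 53 windows (56.6%), against 33.0% of all genes. A match is a description of letters and no evidence of binding.

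The windows of CDC6, which rose, of TYMS, which fell, and of MCM6, which was not called and holds 4 matches, are shown because they place the same motif beside each outcome. Capitals mark the E2F octamers, and each sequence is written 5′ to 3′ on the gene's strand. CDC6 is at chr17:40287629-40287878 on the plus strand, with TTTGGCGG starting 28 bases before the gene's start. TYMS is at chr18:657403-657652 on the plus strand, with TTTCCCGC on the opposite strand, its outermost base 39 bases before the start. MCM6 is at chr2:135876444-135876693 on the minus strand, with 2 overlapping pairs of TTTGGCGC and TTTCGCGC, the latter on the opposite strand, beginning 152 and 90 bases before the start.
CDC6: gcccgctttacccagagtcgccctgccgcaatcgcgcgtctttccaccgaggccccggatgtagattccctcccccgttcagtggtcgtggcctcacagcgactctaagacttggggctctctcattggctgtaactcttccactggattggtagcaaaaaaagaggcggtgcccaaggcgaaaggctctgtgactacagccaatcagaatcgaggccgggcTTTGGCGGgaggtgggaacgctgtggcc
TYMS: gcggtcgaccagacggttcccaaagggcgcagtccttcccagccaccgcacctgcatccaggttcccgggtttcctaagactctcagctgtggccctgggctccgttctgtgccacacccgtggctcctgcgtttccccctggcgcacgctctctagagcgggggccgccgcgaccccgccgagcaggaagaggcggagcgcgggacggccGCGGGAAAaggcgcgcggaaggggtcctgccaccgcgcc
MCM6: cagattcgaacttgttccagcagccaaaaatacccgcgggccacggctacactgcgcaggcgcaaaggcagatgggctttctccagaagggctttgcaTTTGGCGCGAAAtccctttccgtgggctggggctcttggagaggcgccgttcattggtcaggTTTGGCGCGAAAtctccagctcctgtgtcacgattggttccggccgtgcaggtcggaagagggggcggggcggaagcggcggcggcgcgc

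The 7 other called genes with a match are shown as the bases around it, cut at the gene's start where it is near, to let the octamers of rising and falling genes be compared. GINS2 (chr16:85688962-85689001, minus strand) and DTL (chr1:212035724-212035747, plus strand) rose. CDT1 (chr16:88803738-88803777, plus), POLE (chr12:132687343-132687376, minus), POLA1 (chrX:24693765-24693804, plus), ORC3 (chr6:87590107-87590134, plus) and LIG1 (chr19:48170435-48170474, minus) fell. CDT1 holds 2 octamers end to end.
GINS2: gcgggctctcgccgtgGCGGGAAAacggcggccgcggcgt
DTL: gagagcgtgacgtcagTTTGGCGC
CDT1: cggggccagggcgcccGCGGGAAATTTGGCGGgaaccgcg
POLE: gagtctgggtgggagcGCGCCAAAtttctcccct
POLA1: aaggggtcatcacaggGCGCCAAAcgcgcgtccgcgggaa
ORC3: gcagccgcgagggcgcGCGGGAAAtccc
LIG1: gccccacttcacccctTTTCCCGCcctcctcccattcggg

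Other genes of DNA replication and its control were taken from a list of 65, of which 62 were measured. Of these 5 rose and 17 fell (35.5%), beside 29.1% of all genes. Without any 1 vehicle replicate 11 fell, and without vehicle replicate 2 only 3 rose. Under quantile and cyclic loess normalization 10 and 11 of them rose and 13 fell in each. With the deposited normalization 22.7% of the calls in this list were higher. Over all genes the share of calls that were higher moved less, from 50.1% to 55.3% and 52.5%. Among the brightest 4601 genes it moved from 39.0% to 52.6% and 53.2%.

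Among E2F factors and their pocket protein partners 1 of 11 rose and 2 fell (27.3%, beside 29.1% of all genes). E2F5 and E2F4, which act chiefly as repressors, fell by 0.77 ± 0.06 (1.70-fold, adjusted p = 0.00019) and 0.37 ± 0.06. E2F3, E2F6, E2F7 and E2F8 were not called, with changes of 0.14, 0.16, -0.0014 and 0.13. RBL1, the pocket protein p107, rose by 0.33 ± 0.08 (adjusted p = 0.0177), a call that ended without vehicle replicate 2 (adjusted p = 0.0647). Of 9 G1/S cyclins, kinases and CDC25A, 2 rose and 3 fell (55.6%). CCNE2, a cyclin that activates CDK2 at the start of S phase, read 7.63, 7.62 and 7.79 with vehicle and 8.47, 8.50 and 8.69 with menthol. This rise of 0.87 ± 0.08 (1.83-fold, adjusted p = 0.000348) exceeded that of any of the 59 genes. The S-phase and mitotic cyclin CCNA2 fell by 0.47 ± 0.07, and the G1 cyclin CCND1 rose by 0.35 ± 0.07. The remaining falls were of the kinases CDK4, by 0.35 ± 0.06 (adjusted p = 0.00314), and CDK6, by 0.27 ± 0.06 (adjusted p = 0.0137). The CDK6 call ended without vehicle replicate 2 (adjusted p = 0.0555).

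Of 13 other initiation and licensing factors 4 fell and 0 rose (30.8%, beside 29.1% of all genes). RECQL4, a helicase needed to start replication, fell by 0.57 ± 0.06 (adjusted p = 0.000523). DBF4B, an alternative partner of CDC7, fell by 0.27 ± 0.06 and MCMBP, which binds MCM subunits, by 0.24 ± 0.06. The DBF4B call ended without vehicle replicate 1 or 3 (adjusted p 0.0534 to 0.0599). The MCMBP call ended without menthol replicate 1 or 2 or any 1 vehicle replicate (adjusted p 0.0502 to 0.0771), and under quantile (adjusted p = 0.0707) and cyclic loess normalization (adjusted p = 0.0668). The remaining fall was of LRWD1, by 0.20 ± 0.06. That call ended without menthol replicate 2 or 3 or any 1 vehicle replicate (adjusted p 0.0785 to 0.116), and under quantile (adjusted p = 0.0692) and cyclic loess normalization (adjusted p = 0.0575).

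Of 16 other fork and polymerase genes 1, POLE4, rose and 4 fell (31.2%, beside 29.1% of all genes). TONSL, which guards new histones behind the fork, fell by 0.59 ± 0.06 (adjusted p = 0.000563). CHTF18, of an alternative clamp loader, fell by 0.54 ± 0.07 and RNASEH2A, which removes ribonucleotides from DNA, by 0.44 ± 0.06. The remaining fall, of CINP by 0.20 ± 0.06, was at the threshold. That call ended without any 1 of the 6 arrays (adjusted p 0.0813 to 0.15), and under quantile (adjusted p = 0.0605) and cyclic loess normalization (adjusted p = 0.0726). Of 6 other chromatin and methylation genes 2 fell and 0 rose (33.3%). CDCA7, a partner of the remodeller HELLS, fell by 0.41 ± 0.06, and the maintenance methyltransferase DNMT1 by 0.24 ± 0.07 (adjusted p = 0.0349). The DNMT1 call ended without menthol replicate 2 or 3 or any 1 vehicle replicate (adjusted p 0.0617 to 0.109), and under quantile (adjusted p = 0.0787) and cyclic loess normalization (adjusted p = 0.106).

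Of 7 other nucleotide genes 1 rose and 2 fell (42.9%, beside 29.1% of all genes). The deoxycytidine kinase DCK fell by 0.36 ± 0.07 (adjusted p = 0.00763) and the thymidylate kinase DTYMK by 0.21 ± 0.06 (adjusted p = 0.0349), while the mitochondrial thymidine kinase TK2 rose by 0.22 ± 0.06 (adjusted p = 0.0286). The DTYMK call ended without menthol replicate 2 or 3 or any 1 vehicle replicate (adjusted p 0.0741 to 0.104). The TK2 call ended without menthol replicate 2 or any 1 vehicle replicate (adjusted p 0.0558 to 0.1) and with equal array medians (adjusted p = 0.0505).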

How the data were processed

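For 3 vehicle and 3 menthol samples of PC-3 cells, cDNA was labelled from 300 ng of total RNA for Affymetrix whole-transcript arrays, per the labels. The authors deposited 1 table of intensity values for 32321 probesets, normalized by RMA per the submitters' processing notes. The deposited intensities ran from 1.57 to 14835, which is a linear scale, and were put on the log2 scale here. Probesets with 1 gene symbol in the platform annotation (19158) were kept, and the brightest over the 6 arrays stood for each gene, which left 18404. CLSPN and UHRF1 had 2 probesets each.

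Groups were compared on all genes by the moderated linear model of limma 3.58.1 (R 4.3.3, two-sided, group as its term), after checks on simulated data. An exact permutation test of 3 against 3 cannot go below 0.1 and was not used. No set test was run. Members and lists were chosen with earlier results of these data known. By rule, every called gene is described, with each array's value for at most the 24 largest changes, together with the loaders, MCM2 to MCM7, PCNA, RRM1, RRM2, TYMS and TK1, and the 3 largest called changes of each further list. Values beyond these were chosen after the values were seen. They are those of E2F3, E2F6, E2F7, E2F8, CDK4, CDK6, POLE3, POLE4, POLD4, LRWD1 and CINP, and the array values of ASF1B, DBF4 and CCNE2. Some further listed genes are not reported here. No sequence was matched for 6 members. Alternatives covered normalization, a pseudocount of 16, filters on dim genes, probeset use, the variance prior, array weights, the replicate block, thresholds and each array left out. Tables and figures used Python 3.11.15, pandas 2.3.3, scipy 1.17.1 and matplotlib 3.10.9.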

Additional observations from a re-analysis of the deposited data

How the results depend on the processing

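The 17 alternative analyses gave 1000 values for the 59 genes, of which 904 kept direction and side of the threshold, 71 lost a call, 8 gained one and 17 changed sign. The 27 called genes changed sign in 0 of them. The sign changes were those of 8 genes near 0. Under cyclic loess normalization ORC4 was at 0.029, ORC6 at 0.038, MCM5 at 0.013 and CHAF1A at 0.012, under quantile normalization ORC4 was at 0.027 and ORC6 at 0.027, and with array weights RPA3 was at 0.013. As single arrays were left out, the change ran from -0.060 to 0.052 for ORC4, -0.084 to 0.044 for ORC6, -0.018 to 0.064 for MCM8, -0.0099 to 0.064 for RFC3, -0.061 to 0.0066 for RPA3 and -0.11 to 0.040 for E2F2. The cause was not tested. Over the same omissions 7 to 8 replication genes rose and 9 to 14 fell, and of the other replication genes 3 to 5 rose and 11 to 15 fell. Of all genes 1950 to 2402 rose and 1851 to 2472 fell in these omissions, in place of 2683 and 2670. At an adjusted p under 0.01, 6 replication genes rose and 8 fell, and at a change of at least 1.5-fold, 0 and 1. For the other replication genes these counts were 3 and 10, and 1 and 2. Of the latter list 8 and 11 rose with the looser and the stricter filter on dim genes, 10 with the pseudocount, 10 under quantile and 11 under cyclic loess normalization and 9 with the trended prior, in place of 5. The median change of the 59 genes moved by less than its spread between replicates (SD 0.04) in each alternative tried. That spread is larger than the median itself (-0.02), so the comparison cannot show that the median kept its sign. With the replicate number as a block 8 of the 59 rose and 13 fell, and the calls of ORC1, CDT1, DTL, GINS2, WDHD1 and TK1 ended (adjusted p 0.0508 to 0.0885). Same-numbered arrays had correlations of deviations of 0.0065, -0.0072 and 0.09, and arrays of different number had -0.072 to 0.072. The labels do not say whether same-numbered arrays belong together, and these correlations cannot settle it. No background or detection values were used here, so what a low signal limits was not measured.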
